A study of Mus musculus with 32 samples.

Results

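A group of 40 genes that build the DNA replication machinery or run mitosis was followed through primary mouse chondrocytes given interleukin-1β (IL-1β), an inhibitor of lactate dehydrogenase A, or Cre recombinase. The members were chosen by gene symbol, with earlier results of these data known. Each was matched to an Ensembl identifier among the 41388 genes of the count tables. They comprised 11 genes of replication licensing and the fork (Mcm2 to Mcm7, Cdc6, Cdt1, Cdc45, Gins2 and Pcna), 5 of nucleotide supply and maintenance methylation (Rrm1, Rrm2, Tyms, Tk1 and Uhrf1), 8 of mitotic entry (Foxm1, Ccna2, Ccnb1, Ccnb2, Cdk1, Plk1, Aurka and Aurkb), 8 of the kinetochore, spindle checkpoint and anaphase (Bub1, Bub1b, Cenpa, Cenpe, Cenpf, Cdc20, Ube2c and Birc5), and 8 of the spindle, chromosome structure and cytokinesis (Mki67, Top2a, Kif11, Kif20a, Kif23, Tpx2, Nusap1 and Prc1). The former 16 are called the replication genes here and the latter 24 the mitosis genes.

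The 32 RNA libraries came from unpassaged chondrocytes of newborn mouse pups, in 16 groups of 2. The paper calls the cells sternal and describes isolation from sterna and ribs. It states a C57BL/6 background for the wild-type and Ldha floxed mice. Wild-type cells, which received no virus, were left untreated or kept for 24 h with IL-1β at 10 ng/mL, with FX11, which blocks LDHA, at 40 µM, or with the pair. Cells of 3 floxed lines, Ldha f/f (lactate dehydrogenase A), Nampt f/f (the rate-limiting enzyme of NAD salvage) and Nfkbiz f/f (IκB-ζ, a nuclear IκB protein), were infected with adenovirus carrying GFP or Cre for 24 h and then kept with or without IL-1β for a further 24 h. Every floxed culture therefore carried an adenovirus, no wild-type culture did, no floxed culture received FX11, and Cre acted in every cell type that the virus entered. The labels do not say whether libraries of a group came from separate animals or cultures, so the p-values measure only the spread between these libraries, which may be technical.

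Replication genes are transcribed mainly as cells pass from G1 into S phase, when E2F factors are released from the retinoblastoma family of repressors and their promoters become active. Mitosis genes follow in G2, when the MuvB core binds the CHR element together with B-Myb and then FOXM1, while in resting cells the DREAM complex holds genes of both kinds silent. Growth-plate chondrocytes divide in columns before they enlarge, whereas articular chondrocytes of the adult seldom divide. In a bulk library, fewer cycling cells and less RNA of a gene in each cycling cell cannot be told apart.

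Promoters of members of both kinds are shown because the results divided along that line. RefSeq windows of the GRCm38.p6 assembly, from 250 bases before to 50 bases after the start, were held for 33 of the 40 members (Mcm4, Gins2, Foxm1, Ccna2, Aurkb, Kif20a and Tpx2 had none), and 5 are printed 5′ to 3′ up to the base before the start. Capitals mark matches, on either strand, to an E2F word (TTTCCCGC, TTTCGCGC, TTTGCCGC or TTTGGCGC) or to a CHR word (TTTGAA or TTCGAA).
Mcm5, chr8:75109259-75109508, plus strand: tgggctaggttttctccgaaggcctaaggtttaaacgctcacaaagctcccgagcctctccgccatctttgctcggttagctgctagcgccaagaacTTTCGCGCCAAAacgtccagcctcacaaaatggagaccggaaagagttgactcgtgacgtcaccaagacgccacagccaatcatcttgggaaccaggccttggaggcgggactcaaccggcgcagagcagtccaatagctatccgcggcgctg
Mcm6, chr1:128359706-128359955, minus strand: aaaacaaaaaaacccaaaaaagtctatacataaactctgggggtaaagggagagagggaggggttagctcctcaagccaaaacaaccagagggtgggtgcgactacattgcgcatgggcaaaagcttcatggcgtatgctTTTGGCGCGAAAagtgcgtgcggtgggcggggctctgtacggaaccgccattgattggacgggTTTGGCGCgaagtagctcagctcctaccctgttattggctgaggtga
Cdk1, chr10:69352913-69353162, minus strand: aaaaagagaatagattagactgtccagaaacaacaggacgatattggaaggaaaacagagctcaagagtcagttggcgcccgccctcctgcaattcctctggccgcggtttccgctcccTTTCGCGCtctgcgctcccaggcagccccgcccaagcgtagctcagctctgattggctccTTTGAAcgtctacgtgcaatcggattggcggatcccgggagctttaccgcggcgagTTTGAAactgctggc
Cdc20, chr4:118437344-118437593, minus strand: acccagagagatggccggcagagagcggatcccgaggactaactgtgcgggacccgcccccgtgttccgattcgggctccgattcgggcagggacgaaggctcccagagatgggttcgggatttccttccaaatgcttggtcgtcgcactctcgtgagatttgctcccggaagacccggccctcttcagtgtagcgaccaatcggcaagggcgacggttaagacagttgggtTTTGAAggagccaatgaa
Top2a, chr11:99024190-99024439, minus strand: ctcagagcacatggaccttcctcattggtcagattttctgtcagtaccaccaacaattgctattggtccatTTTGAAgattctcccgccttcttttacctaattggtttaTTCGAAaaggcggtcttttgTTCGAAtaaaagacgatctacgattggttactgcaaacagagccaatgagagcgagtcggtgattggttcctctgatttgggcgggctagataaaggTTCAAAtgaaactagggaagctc
Mcm5 and Mcm6, subunits of the replicative helicase, held 2 and 3 E2F words in these bases, some of them overlapping on opposite strands, and no CHR word. Cdk1, the mitotic kinase, held 2 CHR words and 1 E2F word, Cdc20, an activator of the anaphase-promoting complex, 1 CHR word close to the start, and Top2a, which disentangles chromosomes, 4 CHR words.

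Over the whole windows, an E2F word occurred in 7 of 14 replication genes (50%), in 1 of 19 mitosis genes (5.26%) and in 704 of the 27025 genes with a window (2.6%). A CHR word occurred in 15 of 19 mitosis genes (78.9%), in 3 of 14 replication genes (21.4%) and in 21.7% of all genes. CCAAT was common in both kinds, at 10 of 14 (71.4%) and 17 of 19 (89.5%), against 41.1% of all genes. These are letter matches, which do not show that a factor bound.

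Libraries held 15830658 to 39959888 counts over genes (median 25363482). Levels are given as depth-scaled counts (CPM) after TMM scaling over all 32 libraries, and log2 fold changes come with their standard error from edgeR's quasi-likelihood test, with a call where the adjusted p (Benjamini-Hochberg, over all genes tested) was 0.05 or less. All 40 members passed the filter in every fit, and no member was under 1 CPM in any library. Without IL-1β, the targeted genes were lower after Cre in their own lines: Ldha was at 918 and 869 CPM after the GFP virus and at 118 and 111 after Cre, Nampt at 59.5 and 54.6 against 6.72 and 6.86, and Nfkbiz, by a smaller step, at 16.1 and 17.0 against 9.65 and 8.28. Under IL-1β, Nfkbiz was at 235 and 229 CPM against 29.5 and 32.3 in Nfkbiz f/f, but Cre libraries were lower in the other lines too, at 177 and 164 against 69.7 and 66.9 in Ldha f/f and at 202 and 204 against 67.7 and 60.8 in Nampt f/f. The fall of Nfkbiz under IL-1β is therefore not a measure of its deletion alone. Titles of 2 styles divide the libraries into a set 1 of 12 and a set 2 of 20, and both Nfkbiz f/f replicates lie in set 2. In set 2 the wild-type library labelled IL-1β held 0.784 CPM of Mmp3, a matrix metalloproteinase that IL-1β induces, and the library labelled FX11 held 2016, so these labels go against the data and both libraries are named by label only. All 11 chondrocyte markers were detected in every line, their sum ranging from 14830 to 105000 CPM. Sums of fibroblast markers ran from 2432 to 9911 CPM in all libraries but those of Nfkbiz f/f, where they ran from 799 to 1267 CPM, and macrophage sums from 94.7 to 264 CPM in wild-type and from 13.8 to 65.9 CPM in floxed libraries. Their part in the results was not tested.

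Per kilobase of transcript, Rrm2, a subunit of ribonucleotide reductase, had the highest median level over the 32 libraries (61.4 CPM per kb), followed by Pcna, the sliding clamp (48.4), and Mcm2 (46.6). The lowest medians were those of Cdc6, which loads the helicase (2.52 CPM per kb), Cenpf, a kinetochore protein (2.95), and Gins2, a fork component (3.53). Wild-type set 2 held the lowest library for every member: 33 were lowest in the library labelled IL-1β and FX11, 4 in that labelled IL-1β and 3 in the untreated library. The highest library of every member was one of Ldha f/f or Nampt f/f.

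Summed CPM showed the pattern in each library. In Ldha f/f, the replication sum was 1274 and 1306 CPM after the GFP virus and 1775 and 1786 with IL-1β, whereas the mitosis sum was 2069 and 1872 against 2078 and 1892. Nampt f/f was close to this, with replication sums of 1340 and 1317 against 1750 and 1737 and mitosis sums of 2158 and 1962 against 1976 and 1864. Replication sums with and without IL-1β did not overlap in either line, and mitosis sums did. The 2 libraries of each group came from different sets. Within each set, the mitosis sum was lower with IL-1β in Nampt f/f and slightly higher in Ldha f/f. Nfkbiz f/f cultures started lower, with 698 and 729 CPM for replication and 513 and 489 for mitosis after the GFP virus. With IL-1β these became 1165 and 1185 for replication and 547 and 548 for mitosis, so that the replication to mitosis ratio of the group was 2.15 there, against 0.899 in Ldha f/f and 0.909 in Nampt f/f under the same condition. Within set 2 alone, the mitosis sums after the GFP virus were 1872 CPM in Ldha f/f and 1962 in Nampt f/f against 513 and 489 in Nfkbiz f/f. Floxed line and culture cannot be told apart in these levels.

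**Figure D1:**
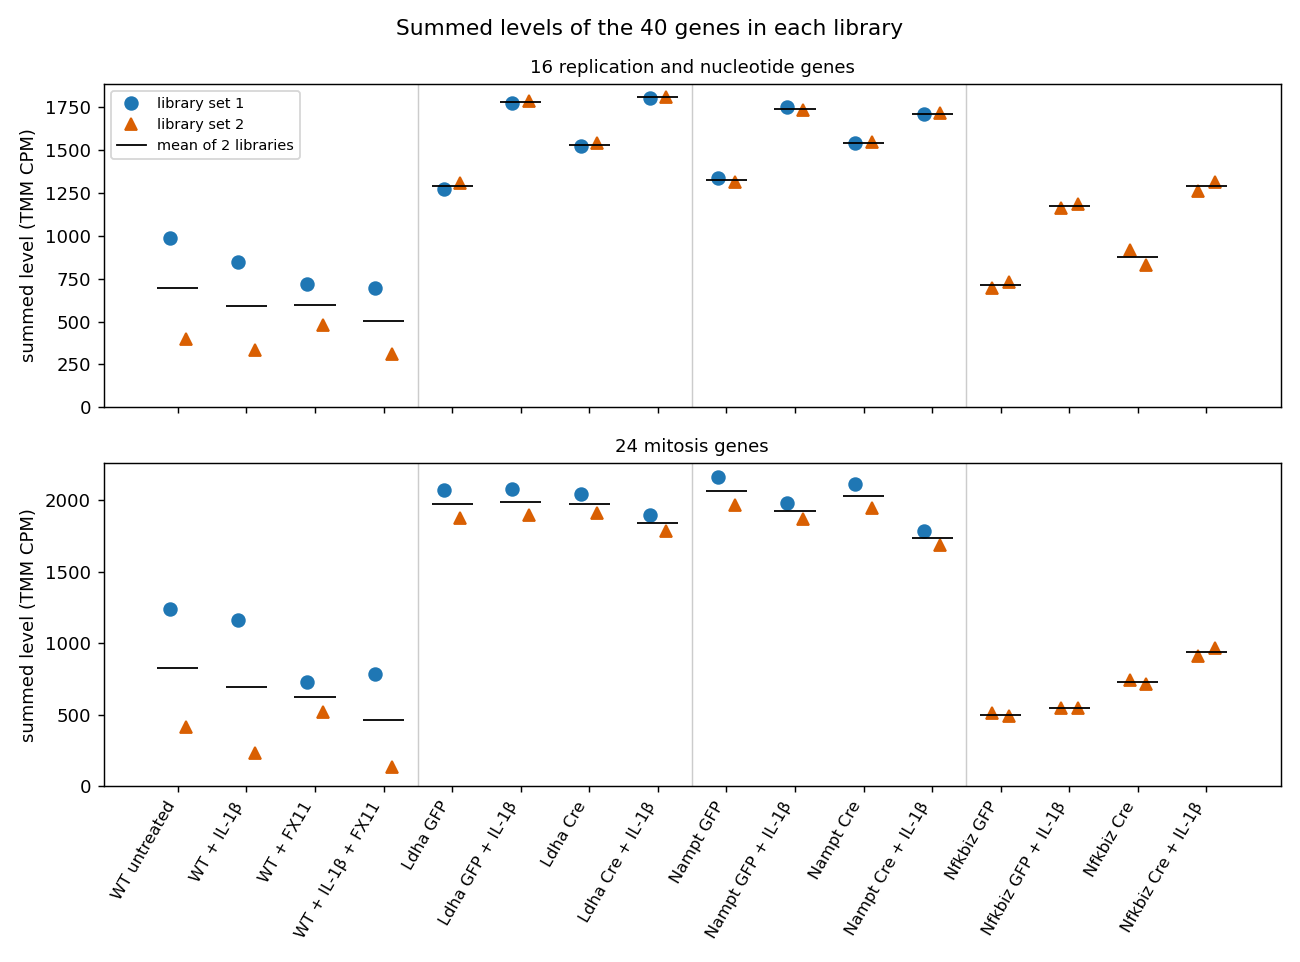
Summed TMM-scaled CPM (vertical axes, from 0) of the 16 replication genes and the 24 mitosis genes in each of the 32 libraries, by group on the horizontal axis; circles are set 1, triangles set 2 and bars the mean of 2 libraries. IL-1β libraries of the floxed lines with GFP lie above their controls for replication (1775 and 1786 against 1274 and 1306 CPM in Ldha f/f), and wild-type set 2 lies below set 1 throughout.

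The IL-1β comparison after the GFP virus asked how the cytokine alone changed the members in infected floxed cells. Replication genes rose in all 3 lines, while few mitosis genes did. In Ldha f/f, 13 of the 16 replication genes and no mitosis gene rose, and 2 mitosis genes fell, against 14.5% of all tested genes higher and 13.3% lower. In Nampt f/f, 15 replication genes rose and 7 mitosis genes fell, against 17.7% higher and 17.3% lower. In Nfkbiz f/f, 15 replication and 6 mitosis genes rose and no member fell, against 15.2% higher and 11.7% lower. The median log2 fold change of the replication genes was 0.54, 0.52 and 0.95 in the Ldha, Nampt and Nfkbiz lines, that of the mitosis genes was -0.02, -0.09 and 0.10.

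Cdc45, a fork helicase subunit, went from 16.7 and 17.2 CPM to 33.6 and 34.4 with IL-1β in Ldha f/f, a log2 fold change of 1.00 ± 0.08 (adjusted p = 1.47e-05). In Nampt f/f it went from 17.6 and 19.1 to 36.3 and 35.3 CPM (0.99 ± 0.10, adjusted p = 1.6e-05), and in Nfkbiz f/f from 9.35 and 9.91 to 18.7 and 20.3 CPM (1.03 ± 0.21, adjusted p = 0.00292). Both treated libraries lay above both controls in each line. Here and in later comparisons most genes described by library were picked for a large or called change, so this separation adds no support. Tyms, thymidylate synthase, went from 18.5 and 22.2 to 46.8 and 48.5 CPM in Nfkbiz f/f, the highest fold of that line (1.24 ± 0.12, adjusted p = 4.96e-06), and rose by 0.94 ± 0.08 in Ldha f/f and 0.85 ± 0.10 in Nampt f/f. Cdc6 rose by 0.91 ± 0.12, 0.87 ± 0.14 and 1.12 ± 0.16 in the Ldha, Nampt and Nfkbiz lines. Cdt1, its partner in licensing, was at 58.6 and 50.7 CPM in Ldha f/f controls against 75.4 and 74.3 with IL-1β (0.45 ± 0.08), and at 19.8 and 20.5 against 46.3 and 44.9 CPM in Nfkbiz f/f (1.19 ± 0.15). The groups were again apart, with the wider gap in Nfkbiz f/f.

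Uhrf1, a gene of maintenance methylation, went from 21.8 and 26.2 to 53.1 and 53.1 CPM in Nfkbiz f/f (1.16 ± 0.11, adjusted p = 7.78e-06). It rose by 0.61 ± 0.06 and 0.59 ± 0.07 in Ldha f/f and Nampt f/f. Pcna went from 109 and 117 to 160 and 173 CPM in Ldha f/f (0.56 ± 0.08) and from 71.7 and 69.7 to 135 and 136 CPM in Nfkbiz f/f (0.95 ± 0.10). Rrm2 rose by 0.75 ± 0.13, 0.46 ± 0.09 and 0.68 ± 0.12 and Mcm5 by 0.47 ± 0.10, 0.37 ± 0.08 and 0.95 ± 0.11 in the order Ldha f/f, Nampt f/f, Nfkbiz f/f. Of the helicase subunits, Mcm3, Mcm4, Mcm5 and Mcm7 rose in every line. Mcm2 was called in no line, with negative values in Ldha f/f and Nampt f/f and a positive one in Nfkbiz f/f. In Ldha f/f it was at 176 and 185 CPM without and 162 and 160 with IL-1β (-0.17 ± 0.07, adjusted p = 0.0852). Its fold change was -0.16 ± 0.06 in Nampt f/f (adjusted p = 0.0621). In Nfkbiz f/f it was at 117 and 117 against 136 and 141 CPM (0.26 ± 0.09, adjusted p = 0.0512), a rise that narrowly missed the threshold. Gins2 and Mcm6 missed the threshold in Ldha f/f, at 0.28 ± 0.10 and 0.12 ± 0.09.

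Among mitosis genes, Plk1, the polo-like kinase, was at 98.0 and 97.8 CPM in Ldha f/f controls and 80.9 and 81.7 with IL-1β (-0.27 ± 0.06, adjusted p = 0.0115), and it fell by 0.30 in Nampt f/f (SE 0.07, adjusted p = 0.0077). Cdc20 went from 105 and 105 to 88.8 and 91.7 CPM in Ldha f/f (-0.22 ± 0.07, adjusted p = 0.0476) and from 106 and 123 to 87.5 and 89.6 CPM in Nampt f/f (-0.35 ± 0.08, adjusted p = 0.00801). These groups did not overlap, in contrast to Mki67, which encodes the proliferation antigen Ki-67 and stood at 403 and 308 CPM without and 422 and 340 with IL-1β in Ldha f/f (0.10 ± 0.14). Ccnb2, cyclin B2, had the lowest value in Nampt f/f (-0.48 ± 0.10, adjusted p = 0.00282) and -0.24 ± 0.09 in Ldha f/f (adjusted p = 0.0848). The other mitosis genes that fell in Nampt f/f were Ccnb1 (cyclin B1, -0.27 ± 0.09), Kif20a (-0.26 ± 0.08), Ube2c (-0.19 ± 0.07) and Prc1 (-0.18 ± 0.06). In Nfkbiz f/f the mitosis genes that rose were Aurkb (0.56 ± 0.17), Cdk1 (0.52 ± 0.13), Kif23 (0.51 ± 0.17), Foxm1 (0.47 ± 0.15), Tpx2 (0.41 ± 0.10) and Top2a (0.34 ± 0.09). Its lowest values, none past the threshold, were those of Cenpa (-0.27 ± 0.17), Cdc20 (-0.20 ± 0.11) and Cenpf (-0.17 ± 0.25), and Birc5, Plk1, Ccnb1 and Mki67 lay between -0.03 and 0.12.

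Within each library set, the median IL-1β difference of the replication genes was 0.55 in set 1 and 0.56 in set 2 for Ldha f/f and 0.45 and 0.51 for Nampt f/f, with 15 of the 16 genes higher in both sets of both lines. Mitosis medians were -0.03 and -0.01, and -0.14 and -0.07. No share of all genes higher in both sets was computed beside these counts. Without Nampt f/f GFP with IL-1β replicate 1, 14 members in place of 22 were called in that line, and without Nfkbiz f/f GFP replicate 1, 13 in place of 21 were called in its line. The sum of the chondrocyte markers fell with the rise of the replication genes, from a mean of 76990 to 28490 CPM in Ldha f/f, and 11 of its 11 genes were called lower in each line. Reads where a member overlaps another gene (Cdc45, Mcm7, Gins2, Cdc20, Kif20a, Ccna2, Nusap1, Tk1) may be shared, as the strand setting of the counting is not given in the sources used here.

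**Figure D2:**
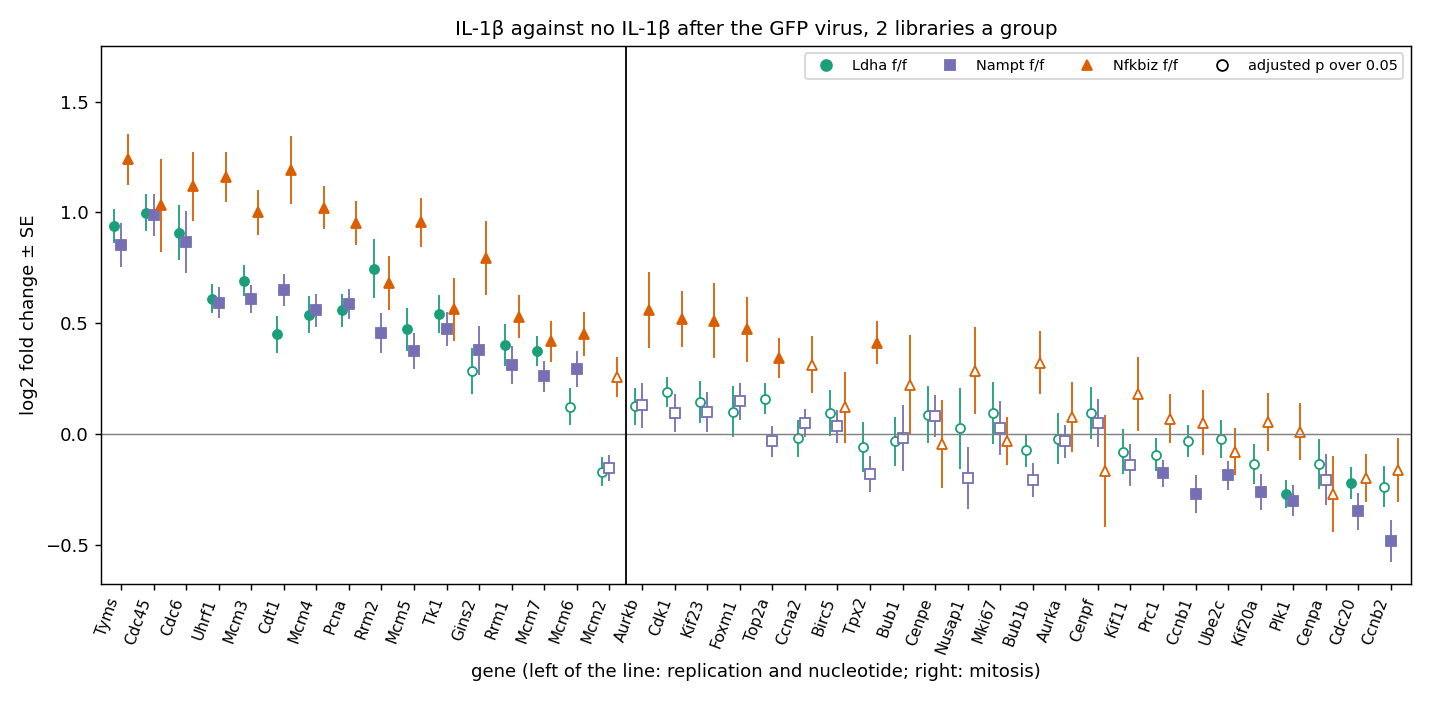
Log2 fold change with standard error of each member for IL-1β against no IL-1β after the GFP virus, by floxed line (2 libraries a group), replication genes on the left and mitosis genes on the right; filled symbols have an adjusted p of 0.05 or less. Replication genes lie above 0 apart from Mcm2 in Ldha f/f and Nampt f/f (-0.17 and -0.16), and most mitosis genes of these lines lie near or below 0.

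After the Cre virus the IL-1β comparison again had more replication than mitosis genes higher, and the median of the replication genes was lower than after the GFP virus in all 3 lines. Ldha f/f had 9 replication genes and 1 mitosis gene higher and 7 mitosis genes lower (19.5% of tested genes higher, 16.3% lower). Nampt f/f had 8 replication genes and 1 mitosis gene higher, and 1 replication and 9 mitosis genes lower (24.3% and 19.6%). Nfkbiz f/f had 15 replication and 10 mitosis genes higher and none lower (11.7% and 10.3%). Replication medians were 0.32, 0.25 and 0.67 and mitosis medians -0.12, -0.20 and 0.34, in that order.

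Uhrf1 led Ldha f/f, with 79.5 and 79.2 CPM after Cre and 121 and 120 with IL-1β as well (0.64 ± 0.07, adjusted p = 4.77e-05), followed by Cdc45 (0.58 ± 0.08) and Pcna (0.55 ± 0.08). In Nampt f/f, Cdc45 rose by 0.72 ± 0.09, Uhrf1 by 0.58 ± 0.07 and Kif23, a kinesin of the central spindle, by 0.55 ± 0.09. In Nfkbiz f/f, Cdc45 rose by 1.25 ± 0.21, Uhrf1 by 1.20 ± 0.11 and Cdt1 by 1.05 ± 0.15. Nusap1, a spindle-associated protein, went from 30.7 and 25.7 to 17.3 and 14.5 CPM in Ldha f/f (-0.79 ± 0.19, adjusted p = 0.00896) and from 29.5 and 23.2 to 13.9 and 13.1 CPM in Nampt f/f (-0.92 ± 0.14, adjusted p = 0.000338). Both IL-1β libraries lay under both controls. Ccnb2 fell by 0.54 in Ldha f/f (SE 0.09) and by 0.52 in Nampt f/f (SE 0.10), Cenpa was at -0.41 ± 0.12 in Ldha f/f and Cenpf at -0.57 ± 0.11 in Nampt f/f, all called. The lowest values in Nfkbiz f/f, Cenpa (-0.12 ± 0.16), Ccnb1 (-0.08 ± 0.14) and Ccnb2 (-0.04 ± 0.14), missed the threshold. Without Ldha f/f Cre replicate 1, or without Ldha f/f Cre with IL-1β replicate 2, 9 members in place of 17 were called in Ldha f/f.

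The Cre virus was compared with the GFP virus without IL-1β to ask how the members changed where the floxed gene was deleted and no cytokine was given. No wild-type culture received Cre, so the recombinase itself and the deletion cannot be told apart in any Cre comparison here. Few members were called in the fits of each line, which held no term for the library set. With that term the counts in Ldha f/f and Nampt f/f were higher, as given in the closing section. In each of these 2 lines, 14 of the 16 replication genes were higher after Cre within both sets, and 0 and 1 were lower in both. Of the 24 mitosis genes, 5 in each line were higher in both sets, and 7 and 15 were lower. The share of all genes that moved in 1 direction in both sets was not computed, so these counts are descriptive. Ldha f/f had 3 higher and none lower (3.43% of tested genes higher, 2.09% lower): Mcm5 at 135 and 142 CPM after Cre against 89.5 and 109 after GFP (0.46 ± 0.10, adjusted p = 0.0232), Tyms at 42.1 and 42.3 against 30.8 and 33.3 CPM (0.38 ± 0.08, adjusted p = 0.0194), and Mcm7 at 118 and 110 against 92.6 and 91.4 CPM (0.29 ± 0.07, adjusted p = 0.0365). Rrm2 had a value as high as theirs with a wider error (0.39 ± 0.13, adjusted p = 0.135). The lowest values were those of Cenpf (-0.26 ± 0.12), Plk1 (-0.23 ± 0.06) and Foxm1 (-0.18 ± 0.12), none called. None of the 3 calls held without GFP replicate 1, Cre replicate 1 or Cre replicate 2, and the count was 6 with DESeq2 or the joint 24-library fit and 5 with the filterByExpr filter.

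Nampt f/f had 4 members higher and none lower (8.3% and 6.07%). Mcm5 was at 139 and 154 CPM after Cre and 106 and 115 after GFP (0.39 ± 0.08, adjusted p = 0.00831), and Rrm2 (0.37 ± 0.09), Tk1, thymidine kinase (0.32 ± 0.08), and Pcna (0.23 ± 0.07) rose as well. Cenpf (-0.35 ± 0.11, adjusted p = 0.0581), Plk1 (-0.14 ± 0.07) and Cdc20 (-0.12 ± 0.08) had the lowest values. Without GFP replicate 1 no member was called, without Cre replicate 2 it was 1, and it was 7 without GFP with IL-1β replicate 1, without a filter on low counts or with the joint fit.

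In Nfkbiz f/f, 39 of the 40 members had a positive value (median 0.42), and 3 mitosis genes were called higher (0.111% of tested genes higher, 0.15% lower). Ube2c, the ubiquitin-conjugating enzyme of the anaphase-promoting complex, was at 42.4 and 41.9 CPM after Cre and 25.6 and 24.9 after GFP (0.73 ± 0.11, adjusted p = 0.00923). Mki67 was at 137 and 128 against 87.8 and 77.03 CPM (0.67 ± 0.11, adjusted p = 0.0187). Top2a was at 86.6 and 84.4 against 54.5 and 52.8 CPM (0.66 ± 0.09, adjusted p = 0.00558). Each of these 3 genes was higher in both Cre libraries than in either GFP library. Bub1, a checkpoint kinase, and Nusap1 had values of 0.75 ± 0.22 and 0.71 ± 0.19 that missed the threshold, and Cdc45 (-0.16 ± 0.22), Mcm6 (0.04 ± 0.10) and Mcm2 (0.06 ± 0.09) were the lowest. The count was 0 without GFP replicate 1, GFP replicate 2 or Cre replicate 1, and 5 without either Cre with IL-1β replicate. It was 23 with the joint 24-library fit and 10 without a filter on low counts.

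Under IL-1β the Cre comparison divided the lines. Mitosis genes rose after Cre in Nfkbiz f/f. In Ldha f/f and Nampt f/f, members were called lower about as often as all tested genes and called higher less often. Those fits held no term for the library set, and with it the count in Ldha f/f was higher, as given in the closing section. Within both sets, 15 and 16 of the 24 mitosis genes were lower after Cre in these lines, and 3 and 2 were higher. Of the 16 replication genes, 8 and 10 were lower and 6 and 5 higher. The share of all genes for such counts was not computed. Of the 24 mitosis genes, 20 rose in Nfkbiz f/f and none fell, with a median of 0.69, and 5 replication genes rose and 3 fell, against 8.16% of tested genes higher and 9.2% lower. Ldha f/f had 3 members higher and 7 lower (16.9% and 17.0%) and a mitosis median of -0.11, and Nampt f/f had 5 higher and 10 lower (25.0% and 23.4%) with the same median.

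Mki67 was at 170 and 171 CPM in Nfkbiz f/f cells with Cre and IL-1β and at 86.5 and 72.9 with GFP and IL-1β, the highest fold of the comparison (1.08 ± 0.11, adjusted p = 2.14e-05). Cdc20 was at 49.2 and 56.9 against 25.5 and 25.3 CPM (1.04 ± 0.11, adjusted p = 2.35e-05). Kif11, the kinesin that separates spindle poles, was at 22.9 and 24.5 against 12.7 and 11.0 CPM (0.98 ± 0.16, adjusted p = 0.000976). In all 3 the Cre libraries lay wholly above the GFP libraries, as they did for Top2a, at 123 and 126 against 69.5 and 65.4 CPM (0.87 ± 0.09). Foxm1, a transcription factor of G2 genes, rose by 0.78 ± 0.14, Plk1 by 0.63 ± 0.13 and Birc5, the passenger-complex protein survivin, by 0.82 ± 0.15. All 8 genes of the spindle group, 6 of 8 of mitotic entry and 6 of 8 of the kinetochore group rose. The 4 that were not called were Ccnb1 (0.37 ± 0.14), Cdk1 (0.08 ± 0.13), Cenpa (0.50 ± 0.17) and Cenpf (0.49 ± 0.25).

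Replication genes of Nfkbiz f/f went both ways. Mcm4 was at 69.0 and 71.2 CPM with Cre against 97.3 and 92.6 with GFP (-0.46 ± 0.09, adjusted p = 0.00514), Tyms at 37.6 and 37.5 against 46.8 and 48.5 CPM (-0.36 ± 0.11, adjusted p = 0.0422), and Pcna at 118 and 100 against 135 and 136 CPM (-0.33 ± 0.10, adjusted p = 0.0378). These 3 fell, with no overlap. Rrm2 (0.58 ± 0.12), Uhrf1 (0.43 ± 0.11), Rrm1 (0.38 ± 0.10), Mcm7 (0.34 ± 0.09) and Mcm5 (0.34 ± 0.11) rose, and Cdt1 (0.12 ± 0.15) and Mcm2 (0.09 ± 0.09) were not called. Without GFP with IL-1β replicate 1 the count of called members was 12 in place of 28, and without GFP with IL-1β replicate 2 it was 17. Nfkbiz transcripts were still at 29.5 and 32.3 CPM in the Cre libraries with IL-1β, and the sum of fibroblast markers was 903 CPM against 814 CPM with GFP.

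In Ldha f/f under IL-1β, Nusap1 was at 17.3 and 14.5 CPM after Cre and at 32.2 and 24.4 after GFP (-0.81 ± 0.19, adjusted p = 0.00821). Cenpf (-0.60 ± 0.12), Ccna2, cyclin A2 (-0.43 ± 0.08), Mcm6 (-0.35 ± 0.09), Ccnb2 (-0.34 ± 0.09), Plk1 (-0.28 ± 0.07) and Mcm4 (-0.27 ± 0.08) fell too. Kif23 went the other way, at 54.2 and 50.5 against 42.6 and 38.2 CPM (0.39 ± 0.10, adjusted p = 0.0104), with Mcm5 (0.32 ± 0.10) and Mcm2 (0.20 ± 0.07). The count of 10 became 6 without GFP with IL-1β replicate 1 or 2 or Cre with IL-1β replicate 1, and 5 without Cre with IL-1β replicate 2.

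Nampt f/f under IL-1β gave the lowest value for Cenpf, at 31.9 and 28.1 CPM after Cre and 59.2 and 60.1 after GFP (-0.97 ± 0.11, adjusted p = 3.65e-05). Nusap1 was at 13.9 and 13.1 against 24.8 and 22.7 CPM (-0.80 ± 0.14, adjusted p = 0.000897). Mcm6 was at 76.6 and 74.5 against 122 and 116 CPM (-0.64 ± 0.08, adjusted p = 7.24e-05). All 3 were lower in both Cre libraries. The others that fell were Cenpe (-0.61 ± 0.10), Cdc6 (-0.59 ± 0.14), Ccna2 (-0.52 ± 0.06), Mcm4 (-0.33 ± 0.07), Gins2 (-0.32 ± 0.11), Bub1b (-0.23 ± 0.08) and Birc5 (-0.21 ± 0.08). Kif23 (0.54 ± 0.09), Mcm5 (0.33 ± 0.08), Rrm2 (0.29 ± 0.09), Ube2c (0.23 ± 0.07) and Uhrf1 (0.20 ± 0.07) rose. Without Cre with IL-1β replicate 2 the count was 9 in place of 15. Kdr, an endothelial gene, was called higher after Cre in both lines (log2 3.27 in Ldha f/f and 3.45 in Nampt f/f under IL-1β), and the sum of the 5 endothelial markers went from a mean of 5.49 to 19.2 CPM in Ldha f/f and from 7.23 to 24.8 CPM in Nampt f/f. Of these markers, 4 reached 1 CPM in both lines and Emcn did not. Kdr was the most abundant, with a mean of 6.64 CPM over the Ldha f/f libraries and 8.63 over those of Nampt f/f. The sums therefore largely reflect Kdr. Of 11 chondrocyte markers, 10 and 9 were called lower after Cre with IL-1β in Ldha f/f and Nampt f/f, and 1 lower and 1 higher in Nfkbiz f/f. The part of these cell types in the result was not tested.

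**Figure D3:**
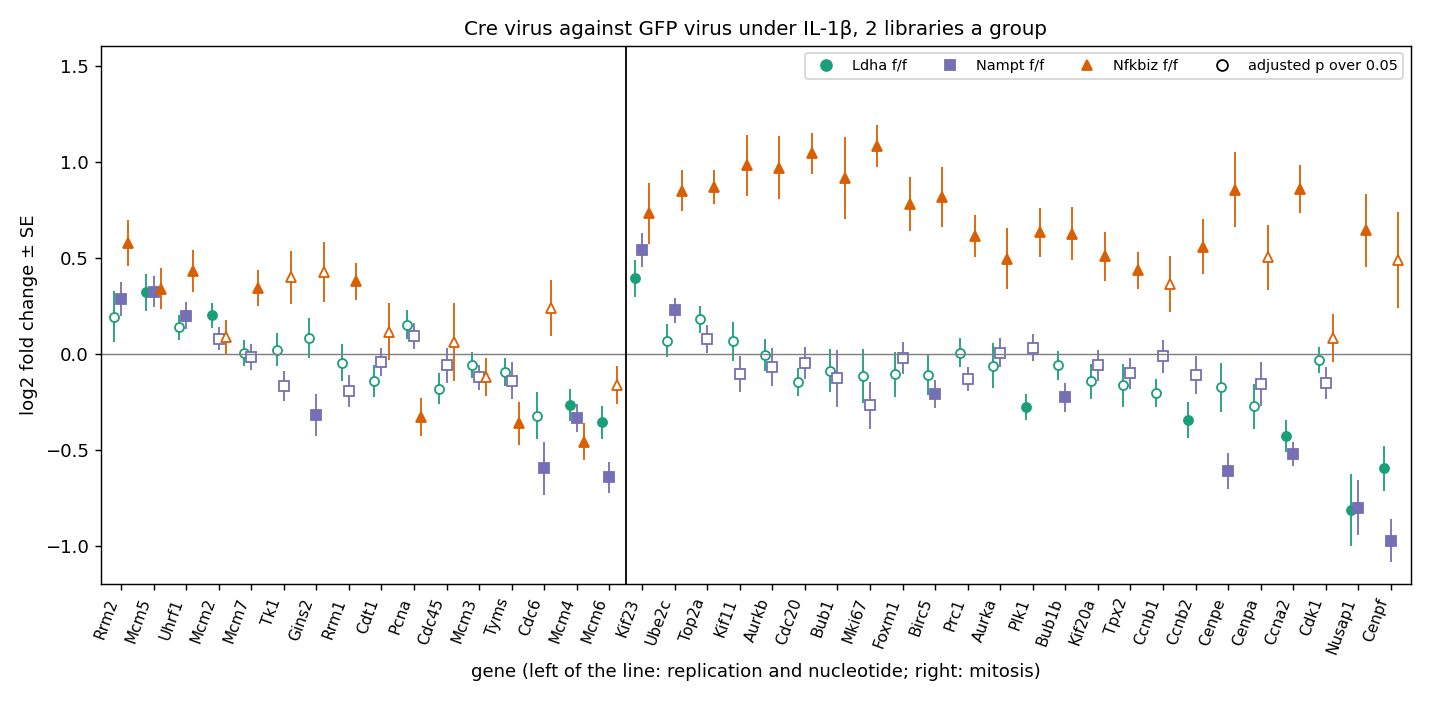
Log2 fold change with standard error of each member for the Cre virus against the GFP virus under IL-1β, by floxed line (2 libraries a group); filled symbols have an adjusted p of 0.05 or less. Mitosis genes of Nfkbiz f/f lie above 0, up to 1.08 for Mki67, while Nusap1 and Cenpf of Ldha f/f and Nampt f/f lie between -0.60 and -0.97.

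A direct test of the difference between lines in the Cre effect under IL-1β called 28 members lower and 1 higher in Ldha f/f than in Nfkbiz f/f (14.0% of 16727 tested genes lower, 13.0% higher), and 29 lower and 1 higher in Nampt f/f than in Nfkbiz f/f (18.6% and 17.6%). Both tests use the same Nfkbiz f/f libraries. Of the 24 mitosis genes, 22 were called in each. Mki67 differed by -1.23 ± 0.12 (adjusted p = 2.24e-08) and -1.39 ± 0.12 (adjusted p = 1.89e-09), Ccna2 by -1.32 ± 0.12 and -1.42 ± 0.13, and Nusap1 by -1.49 ± 0.20 in each. Pcna was the 1 member with a higher value, at 0.45 ± 0.10 and 0.38 ± 0.10. Set against each other, the Ldha and Nampt lines had no member called (0.311% of genes lower, 0.227% higher, and 2152 genes at an unadjusted p under 0.05). The limma voom fit with quality weights called 2.

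Without IL-1β, the Cre effect in Ldha f/f differed from that in Nfkbiz f/f for 10 mitosis genes (1.04% of genes higher, 0.855% lower), and the effect in Nampt f/f for 16 (2.61% and 2.43%), all lower than in Nfkbiz f/f, and no replication gene was called. Mki67 differed by -0.72 ± 0.12 and -0.73 ± 0.12, Plk1 by -0.59 ± 0.12 and -0.52 ± 0.12, and Top2a by -0.50 ± 0.09 and -0.57 ± 0.09. The count of 10 ran from 4 to 6 without Ldha f/f GFP replicate 1 or 2, Ldha f/f Cre replicate 1 or 2 or Nfkbiz f/f Cre replicate 1, with the lowest for Ldha f/f Cre replicate 2. The count of 16 was 9 without Nampt f/f GFP replicate 1 and 8 without Nampt f/f Cre replicate 1 or 2. Ldha f/f and Nampt f/f did not differ in any member by this test (0.0478% of genes lower and 0.0418% higher, 842 genes at an unadjusted p under 0.05).

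The IL-1β effect after the GFP virus was lower in Ldha f/f than in Nfkbiz f/f for 7 members (0.676% of genes higher, 1.74% lower) and lower in Nampt f/f than in Nfkbiz f/f for 9 (1.33% and 2.67%). Cdt1 differed by -0.73 ± 0.16 in the former (adjusted p = 0.0117) and by -0.53 ± 0.16 in the latter (adjusted p = 0.0693). Mcm5 (-0.47 ± 0.11 and -0.57 ± 0.12), Uhrf1 (-0.54 ± 0.11 and -0.56 ± 0.11), Mcm4 (-0.47 ± 0.10 and -0.45 ± 0.10), Mcm2 (-0.42 ± 0.09 and -0.40 ± 0.09), Pcna (-0.39 ± 0.10 and -0.36 ± 0.10) and Tpx2 (-0.46 ± 0.10 and -0.58 ± 0.10) were called in both. The count of 7 was 4 or less without Ldha f/f GFP replicate 1 or 2, Ldha f/f GFP with IL-1β replicate 1, Nfkbiz f/f GFP replicate 1 or Nfkbiz f/f GFP with IL-1β replicate 1 or 2, and 1 without Ldha f/f GFP with IL-1β replicate 2. The count of 9 was 3 without Nampt f/f GFP replicate 1 or GFP with IL-1β replicate 2, 4 without Nfkbiz f/f GFP replicate 1, and 5 without Nampt f/f GFP replicate 2 or Nfkbiz f/f GFP with IL-1β replicate 2. Ldha f/f and Nampt f/f differed in no member by edgeR (0.012% of genes lower, 0.0% higher, 1047 genes at an unadjusted p under 0.05).

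Averaged over the 3 floxed lines, IL-1β after the GFP virus raised 15 replication and 5 mitosis genes and lowered 4 mitosis genes (27.7% of tested genes higher, 25.3% lower). Tyms led with 1.02 ± 0.06 (adjusted p = 1.74e-13), then Cdc45 with 1.01 ± 0.08 and Cdc6 with 0.97 ± 0.07, and Ccnb2 (-0.29 ± 0.06), Cdc20 (-0.25 ± 0.05) and Cenpa (-0.20 ± 0.06) were lowest. After Cre, IL-1β raised 17 members and lowered 6 (28.3% and 28.0%), from Cdc45 (0.83 ± 0.08), Uhrf1 (0.79 ± 0.04) and Kif23 (0.52 ± 0.06) down to Nusap1 (-0.52 ± 0.08), Ccnb2 (-0.39 ± 0.06) and Cenpf (-0.30 ± 0.10). Cre without IL-1β raised 24 members, 13 of replication and 11 of mitosis, and lowered none (11.0% and 7.99%), led by Rrm2 (0.49 ± 0.05), Mcm5 (0.46 ± 0.05) and Ube2c (0.38 ± 0.04), with Cenpf (-0.07 ± 0.10), Mcm6 (0.01 ± 0.04) and Plk1 (0.01 ± 0.05) lowest and uncalled. With IL-1β, Cre raised 17 and lowered 7 (24.8% and 29.1%), with Kif23 (0.54 ± 0.06), Ube2c (0.37 ± 0.04) and Top2a (0.36 ± 0.04) at the top and Mcm6 (-0.40 ± 0.04), Cenpf (-0.37 ± 0.10) and Mcm4 (-0.36 ± 0.04) at the bottom. An average over lines that moved apart, as the mitosis genes did here, stands for no single line.

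Whether Cre changed the response to IL-1β was tested as the interaction, averaged over the lines. It was negative for 15 of the 16 replication genes, of which 9 were called, while 2 mitosis genes were called in each direction (13.7% of tested genes higher, 17.2% lower). Nusap1 (-0.56 ± 0.11, adjusted p = 0.000385), Mcm4 (-0.52 ± 0.06, adjusted p = 1.73e-07) and Tyms (-0.51 ± 0.08, adjusted p = 2.28e-05) had the lowest values. Cdc6 (-0.48 ± 0.10), Mcm6 (-0.41 ± 0.06), Mcm3 (-0.34 ± 0.06), Rrm1 (-0.34 ± 0.05), Cdt1 (-0.25 ± 0.09), Pcna (-0.24 ± 0.06), Cdk1 (-0.23 ± 0.07) and Mcm7 (-0.16 ± 0.05) were also called. Kif23 (0.27 ± 0.08) and Cdc20 (0.17 ± 0.06) were the 2 called higher, and Kif11 (0.14 ± 0.09) came next, uncalled. Uhrf1 (-0.01 ± 0.06) was not called. In Mcm4 the replicates show the interaction directly: Nfkbiz f/f went from 45 and 49.4 to 97.3 and 92.6 CPM with GFP and from 54.1 and 50.9 to 69.0 and 71.2 CPM with Cre.

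**Figure D4:**
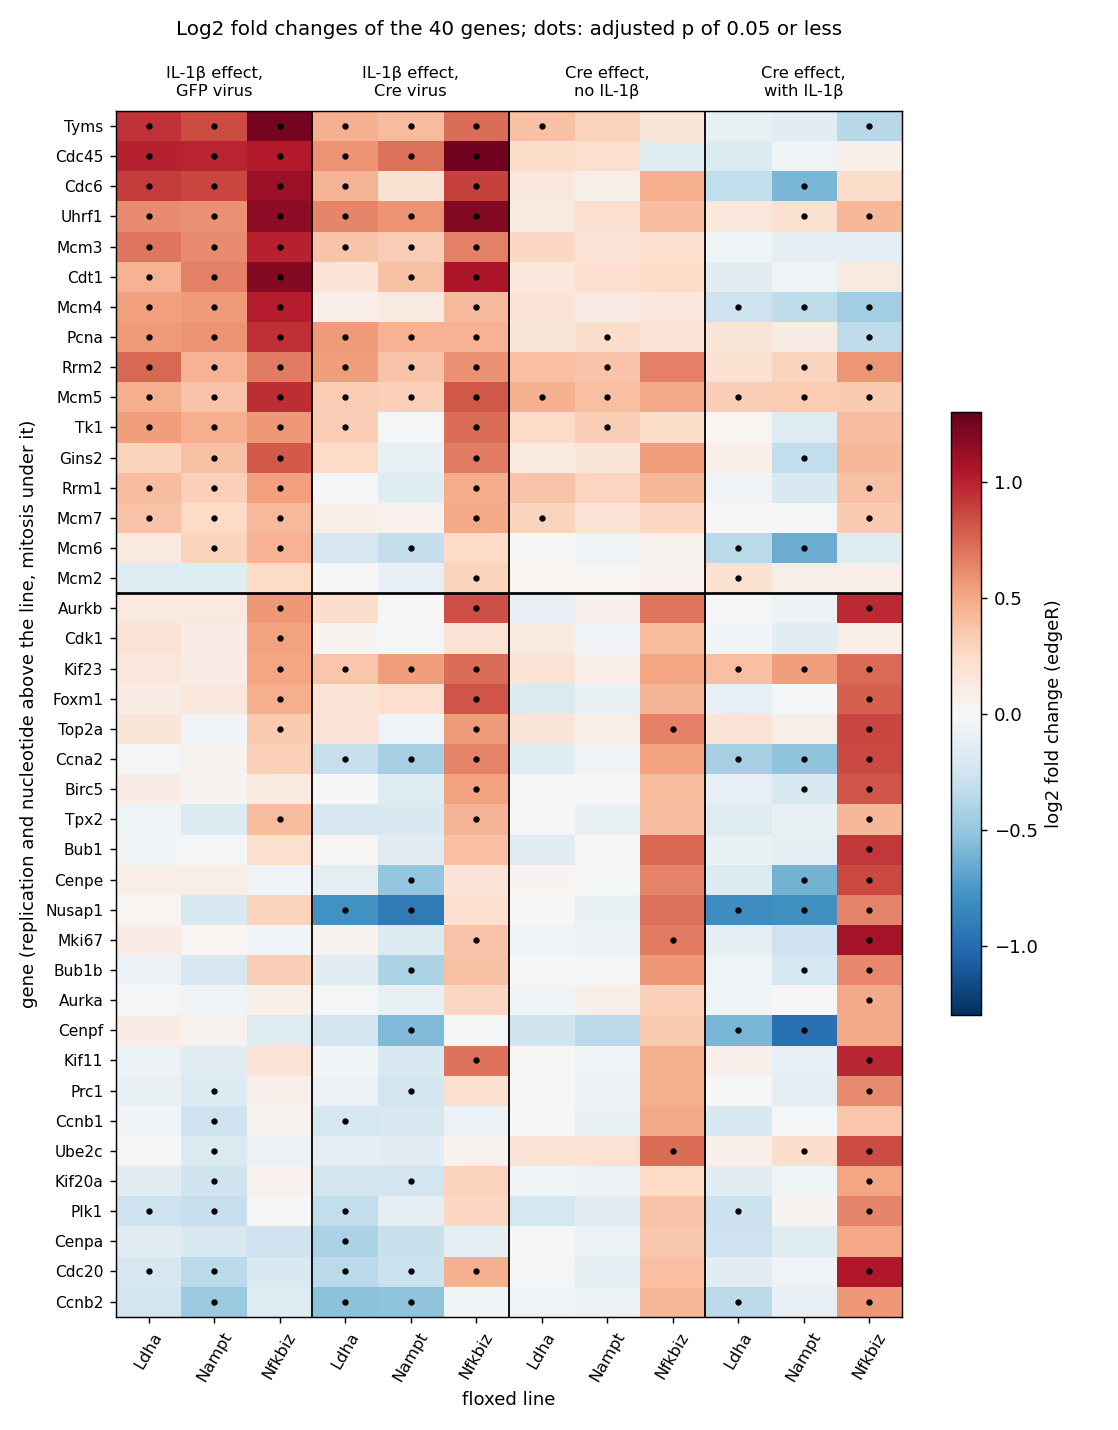
Log2 fold change (colour scale) of each member (rows, replication genes above the line) for 4 comparisons in the 3 floxed lines (columns), with a dot where the adjusted p was 0.05 or less. The upper left block, IL-1β after GFP in replication genes, is positive apart from Mcm2 in Ldha f/f and Nampt f/f and reaches 1.24 for Tyms in Nfkbiz f/f, and the lower right column, Cre under IL-1β in Nfkbiz f/f, is positive for all 24 mitosis genes.

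In wild-type cells edgeR called no member, and no gene at all (0.0%), for IL-1β, FX11 or both against untreated, or for both agents against IL-1β, with 153, 68, 860 and 102 genes at an unadjusted p under 0.05. DESeq2 and the limma voom fit also called no member. The IL-1β and FX11 groups each hold 1 of the set 2 libraries whose labels go against their Mmp3 level, so these counts of 0 say little about either agent. The spread between the library sets was wide: the untreated library of set 2 was below that of set 1 for all 40 members, by a median log2 of -1.53, from -2.08 for Ube2c to -0.70 for Pcna. Mki67 was at 231 CPM in the untreated library of set 1 and at 93.1 in that of set 2, and Top2a at 136 and 50.2. Each treated library was therefore read against the untreated library of its own set, with 1 library a treatment and no test.

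In set 1 the FX11 library was below the untreated one for all 40 members (median log2 ratio -0.66), from -1.01 for Bub1b to -0.22 for Pcna. Mki67 was at 125 CPM there against 231, Top2a at 78.7 against 136, Plk1 at 27.1 against 51.8, and Mcm5 at 44.3 against 68.1. With IL-1β and FX11 together all 40 were again lower (median -0.56), whereas with IL-1β alone 31 were lower and 9 higher (median -0.10), from -0.92 for Mcm2 to 0.36 for Tyms. The replication median with IL-1β was -0.13 in this library.

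In set 2 the library labelled FX11, which held the high Mmp3, was above the untreated one for 39 members (median 0.31), with Tyms at 19.0 against 11.2 CPM and Birc5 at 12.8 against 8.16. The library labelled IL-1β, with the low Mmp3, was below it for 37 members (median -0.68, beside -0.66 for FX11 and -0.10 for IL-1β in set 1), with Mki67 at 40.1 against 93.1 CPM. The library labelled with both agents was below it for 37 members (median -1.21, mitosis genes -1.61), with Mki67 at 22.1, Plk1 at 3.34 and Cenpf at 2.73 CPM. Cdt1, Mcm2 and Mcm7 were the members above the untreated library in the latter 2 libraries. Without both doubtful libraries, an alternative chosen after seeing the data, edgeR still called no member in any of the 4 comparisons.

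**Figure D5:**
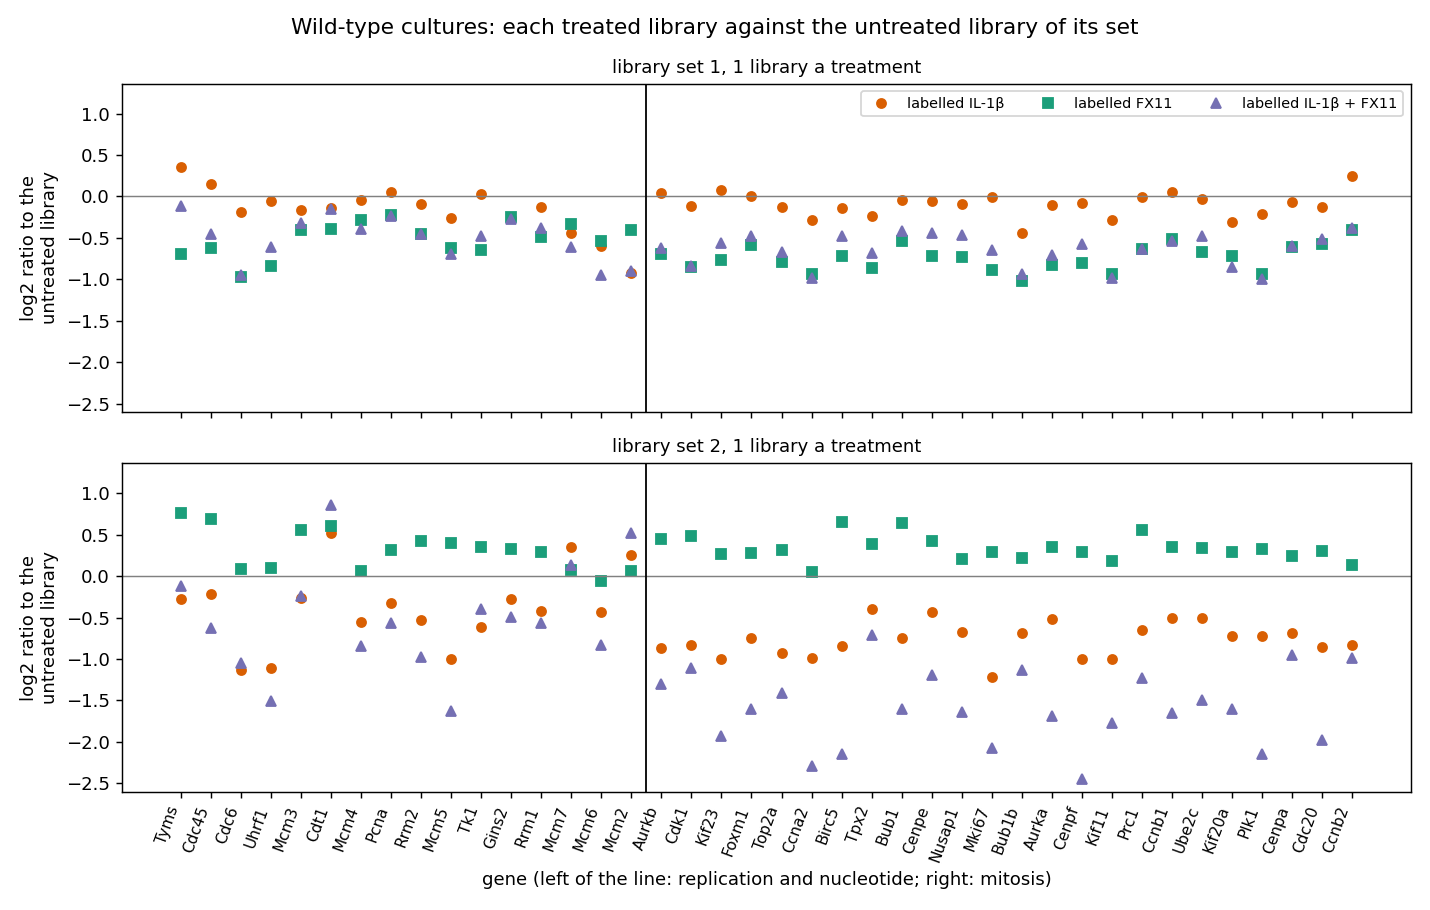
Log2 ratio of each member's level in each treated wild-type library to the untreated library of the same set (1 library a treatment), set 1 above and set 2 below, replication genes on the left. The library labelled FX11 lies below 0 for all 40 members in set 1 and above 0 for 39 in set 2, and the library labelled with both agents falls to -2.45 for Cenpf in set 2.

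Floxed cells with the GFP virus and no IL-1β, compared with untreated wild-type cells, had positive values for all 40 members (median 0.74), from 0.15 ± 0.29 for Uhrf1 to 1.25 ± 0.35 for Rrm2. Mcm6 was the 1 member called (0.74 ± 0.18, adjusted p = 0.0409), against 4.14% of tested genes higher and 8.48% lower. Aurka (1.21 ± 0.36, adjusted p = 0.0752) and Cdc20 (1.15 ± 0.39) were next highest, and Cdc6 (0.30 ± 0.28) and Foxm1 (0.40 ± 0.28) next lowest. The virus, the floxed lines and the cultures cannot be told apart here. The count rested on single libraries: it was 40 without untreated wild-type replicate 1, 6 without replicate 2, and 0 without any 1 of the 6 GFP libraries. Without wild-type replicate 2, Uhrf1 was called in the other direction, at -0.55.

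Genes of the same pathways outside the 40 were read from lists that, like the 40, were chosen with earlier results of these data known. All 44 other replication genes were tested. IL-1β after the GFP virus raised 20, 17 and 25 of them in the Ldha, Nampt and Nfkbiz lines and lowered none. Gmnn, geminin, led in Nfkbiz f/f (1.26). Of 65 other mitosis genes, 11, 6 and 8 rose and 2, 8 and 1 fell, with Ccnf (0.76 and 0.62) and Cks2 the highest and Troap (-0.34), Spc24 (-0.60) and Cdc25b the lowest. Under IL-1β, Cre raised 39 and lowered 1 of them in Nfkbiz f/f (Kif18b 1.68, Cks2 -0.88), raised 3 and lowered 15 in Ldha f/f (Ncaph 0.49, Cenpq -0.65), and raised 8 and lowered 26 in Nampt f/f (Kifc1 0.51, Cenpk -1.04). Other replication genes rose and fell there in 3 and 1 cases in Nfkbiz f/f (Clspn 0.84), 6 and 5 in Ldha f/f (Fen1 0.70, Orc5 -0.84) and 7 and 15 in Nampt f/f (Pola2 0.73, Orc5 -0.87). The shares of all genes given above for each comparison apply to these lists as well.

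Replication-dependent histone genes, of which 56 of 64 were tested, are transcribed in S phase. IL-1β after the GFP virus raised 1, 1 and 8 and lowered 1, 3 and 2 in the Ldha, Nampt and Nfkbiz lines. Of all tested genes, 14.5%, 17.7% and 15.2% were higher and 13.3%, 17.3% and 11.7% lower, so histone genes did not rise beyond that share. Under IL-1β, Cre lowered 29 in Ldha f/f and 45 in Nampt f/f, raising 0 and 1 (Hist1h2ae -1.91 and -2.31), and raised 32 in Nfkbiz f/f, lowering none (Hist1h2br 1.61). Of all tested genes, 17.0%, 23.4% and 9.2% were lower and 16.9%, 25.0% and 8.16% higher in the Ldha, Nampt and Nfkbiz lines. Their summed level was 4827 CPM with GFP and IL-1β and 3206 with Cre and IL-1β in Ldha f/f, 4705 and 2435 in Nampt f/f, and 1846 and 2672 in Nfkbiz f/f. The copies of these genes are nearly alike, so single histone values are uncertain.

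Among regulators, E2f1 was at 35.3 and 35.7 CPM in Ldha f/f GFP libraries and 40.5 and 45.9 with IL-1β (0.28), and at 24.2 and 21.1 against 40.8 and 41.3 CPM in Nfkbiz f/f (0.87), with 0.50 in Nampt f/f. Mybl2, which encodes B-Myb, rose by 0.80, 0.93 and 0.65. All 6 values were called, and 8, 7 and 9 of the 19 E2F, DREAM and retinoblastoma genes rose with 0, 1 and 0 lower. Cdkn1a, which encodes the CDK inhibitor p21, was at 525 and 455 CPM against 647 and 625 with IL-1β in Ldha f/f (0.37) and also rose in Nampt f/f (0.25), while in Nfkbiz f/f it was at 906 and 933 against 847 and 873 CPM (-0.08, not called). After Cre without IL-1β Cdkn1a rose by 0.41 in both Ldha f/f and Nampt f/f and had a value of 0.08 in Nfkbiz f/f. Of 16 genes of homologous recombination and the S-phase checkpoint, IL-1β after GFP raised 5, 6 and 9 and lowered none, and Cre under IL-1β lowered 6 in Ldha f/f (Fancd2 -0.71), lowered 9 and raised 1 in Nampt f/f (Bard1 -1.07), and raised 6 in Nfkbiz f/f (Fanci 1.20). The shares of all genes printed beside the histone counts apply to the regulator and recombination lists too.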

How the data were processed

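RNA was sequenced from 32 libraries of mouse sternal chondrocytes after ribosomal RNA depletion. The authors aligned the reads with STAR, counted them per gene with featureCounts against GENCODE M21 on GRCm38, and deposited raw read counts for 41388 Ensembl genes beside CPM and RPKM. The deposited CPM and RPKM were equal, within a relative tolerance of 1e-6, to values recomputed from the counts in all 32 libraries and were not used further. The submitters' processing notes name STAR 2.0.4b and featureCounts 1.45.

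Counts were tested with edgeR 4.0.16 (R 4.3.3), after leaving out 355 ribosomal RNA genes and genes not over 1 CPM in at least 1 library, with TMM scaling, the quasi-likelihood test and Benjamini-Hochberg adjustment over all genes tested. Each line was fitted on its own 8 libraries with no replicate block, averages and differences between lines on 24 with the library set as a term, and GFP against uninfected wild-type cells on 8. The alternatives were DESeq2 1.42.0, limma 3.58.1 (voom with quality weights), RLE scaling, other filters, the library set as a block, a joint fit and leaving out each library. The scripts were tested on simulated counts.

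The members and the other gene lists were chosen with earlier results of these data known. Genes named are all 40 members by count, 13 members throughout (Mki67, Top2a, Cdk1, Ccnb1, Plk1, Birc5, Mcm2, Mcm5, Pcna, Rrm2, Cdt1, Uhrf1 and Foxm1), the 3 highest and 3 lowest of each comparison, and, of other lists, the called gene of largest change in each direction with Cdkn1a, E2f1 and Mybl2. Others that were called are named where their count was small. The leading gene of a list is not reported here in some comparisons. Promoter windows came from RefSeq.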

Additional observations from a re-analysis of the deposited data

Results flagged for a closer look

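Results are listed here where a test of a difference between groups was past an adjusted p of 0.05 (edgeR, 24 libraries). The interaction of Cre with IL-1β, averaged over the floxed lines, was called for 13 members, among them Pcna (-0.24), Cdk1 (-0.23) and Cdt1 (-0.25).

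Set against Nfkbiz f/f, the Cre effect without IL-1β in Ldha f/f differed in 10 members, among them Plk1 (-0.59), Mki67 (-0.72) and Top2a (-0.50). With IL-1β it differed in 29, with Pcna higher in Ldha f/f (0.45) and Foxm1 (-0.92), Plk1 (-0.94), Mki67 (-1.23), Top2a (-0.73), Birc5 (-0.96), Ccnb1 (-0.60), Rrm2 (-0.42) and Uhrf1 (-0.33) lower. The IL-1β effect after GFP differed in 7, among them Pcna (-0.39), Mcm2 (-0.42), Mcm5 (-0.47), Cdt1 (-0.73) and Uhrf1 (-0.54).

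The Nampt line was set against the Nfkbiz line in the same way, and the Cre effect without IL-1β differed in 16 members, among them Plk1 (-0.52), Mki67 (-0.73), Cdk1 (-0.46), Top2a (-0.57) and Ccnb1 (-0.57). With IL-1β it differed in 30, with Pcna higher in Nampt f/f (0.38) and Foxm1 (-0.85), Plk1 (-0.65), Mki67 (-1.39), Top2a (-0.84), Birc5 (-1.07), Ccnb1 (-0.42) and Rrm2 (-0.34) lower. The IL-1β effect after GFP differed in 9, among them Pcna (-0.36), Mcm2 (-0.40), Mcm5 (-0.57), Top2a (-0.36) and Uhrf1 (-0.56). Both sets of comparisons use the same Nfkbiz f/f libraries.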

How the results depend on the processing

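With 2 libraries a group, counts of called members moved when a library was left out. Over single libraries left out, counts ran as follows (the reported count in brackets). For Cre without IL-1β they ran from 0 to 4 (3) in Ldha f/f, 0 to 7 (4) in Nampt f/f and 0 to 5 (3) in Nfkbiz f/f, and for Cre with IL-1β from 5 to 10 (10), 9 to 17 (15) and 12 to 28 (28). For IL-1β after GFP they ran from 12 to 14 (15), 14 to 20 (22) and 13 to 22 (21), and after Cre from 9 to 17 (17), 13 to 26 (19) and 18 to 29 (25). Averages ran from 17 to 26 (24) for Cre without IL-1β, 20 to 27 (24) with it, 23 to 26 (24) for IL-1β after GFP, 22 to 26 (23) after Cre and 9 to 18 (13) for the interaction. Differences of Ldha f/f from Nfkbiz f/f ran from 4 to 15 (10), 25 to 34 (29) and 1 to 8 (7) for Cre without IL-1β, Cre with it and IL-1β after GFP, those of Nampt f/f from Nfkbiz f/f from 8 to 19 (16), 28 to 31 (30) and 3 to 11 (9), and GFP against wild type from 0 to 40 (1). Uhrf1 in the last comparison ran from -0.55 without untreated wild-type replicate 2, a reversal with an adjusted p of 0.0015, to 0.84 without replicate 1.

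Other settings moved some counts by over 1.5 times. Cre without IL-1β gave 6 with DESeq2, 5 with filterByExpr and 6 with the joint 24-library fit in Ldha f/f, 7 without a filter and 7 with the joint fit in Nampt f/f, and 10 without a filter and 23 with the joint fit in Nfkbiz f/f. Limma voom called 2 members for Ldha f/f against Nampt f/f under IL-1β, where edgeR called 0. GFP against wild type gave 14 with DESeq2, 4 with limma voom and 27 without a filter. The causes were not tested. Of 198 counts under settings other than a left-out library, 178 were within 1.5 times. Counts of 0 in both fits were scored as within. The reported count was 0 in the wild-type comparisons and in those of Ldha f/f against Nampt f/f, so part of this agreement reflects an absence of calls.

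The replicate numbers give only 2 sets, and samples of a number shared no stated animal or day. Deviations of same-numbered libraries correlated at 0.40 to 0.64 in Ldha f/f, 0.42 to 0.57 in Nampt f/f, -0.17 to 0.74 in wild type and -0.32 to 0.12 in Nfkbiz f/f over 11785 genes. With the number as a block, Cre without IL-1β called 8 members in Ldha f/f and 12 in Nampt f/f. Cre with IL-1β called 18 in Ldha f/f, and IL-1β after Cre 29 in Nampt f/f. Neither the directions nor the shares of all genes called are given for these fits. The counts therefore do not set the members apart from other genes. Without the block for the set, the differences from Nfkbiz f/f were 5 (Ldha f/f) and 9 (Nampt f/f) for Cre without IL-1β and 4 and 5 for IL-1β after GFP, and GFP against wild type gave 0.

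Calls of single genes were followed only for the members named throughout, which are listed with the data processing. The remaining members were not scored in this way. Under the other settings, 92 of 1723 values of these named members that had not been called gained a call. Among their 851 called values under those settings, 815 stayed called, 36 lost the call and 0 reversed. With a library left out, 1995 of 2240 stayed called, 245 lost the call and 0 reversed.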
